A study of Mus musculus with 6 samples.

Results

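The BCL2 family decides whether a cell keeps its mitochondria intact, and the 9 members examined here were Bcl2, Bcl2l1, Mcl1, Bcl2a1b, Bcl2a1d, Bax, Bcl2l11, Bbc3 and Pmaip1. They were chosen by name, as the rows of the gene list that carry these symbols, and all 9 were found among the 32285 features, each at 10 CPM (UMIs scaled to a common library total) or more in at least 1 library. The libraries came from male wild-type C57BL/6J mice 7 to 8 weeks old, with no transgene, and held alpha-beta T cells of the kidney, viable by dye exclusion and flow-sorted into CD4+, CD8+ and CD4- CD8- (double negative, DN) populations. The control group was normal kidney, with no sham operation stated, and the ischemia-reperfusion (IR) group was kidney whose pedicles on both sides were clamped for 30 minutes. Serum creatinine was read at 24 hours, whereas the hour at which the cells were taken and the number of mice behind each library are not given in the sources used here. Each of the 6 groups was 1 droplet library of transcript 3' ends, so there was no replicate and no test, and every interval below covers counting error only.

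T cells die by the mitochondrial route when BAX and its relative BAK open pores in the outer membrane and release cytochrome c. BCL2, BCL-XL (the product of Bcl2l1), MCL1 and the A1 proteins (Bcl2a1 genes) hold BAX and BAK in check, and BH3-only proteins such as BIM (Bcl2l11), PUMA (Bbc3) and NOXA (Pmaip1) occupy those guardians and so free the effectors. Resting T cells are known to lean on BCL2 under interleukin 7, activated T cells on A1 and BCL-XL, and NOXA is known to act mainly on MCL1 and A1, while PUMA and BIM bind every guardian.

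The A1 genes Bcl2a1b and Bcl2a1d, which are near copies of each other, and the BH3-only genes Bbc3 and Bcl2l11 are introduced by the 250 bases before a transcription start, since each window holds a motif match described below. RefSeq windows on GRCm38.p6 were found for 8 of the 9 members. Bcl2a1b (gene chr9:89199209-89207827, plus strand) and Bcl2a1d (chr9:88723285-88731914, minus strand) lie in the same cluster on chromosome 9, and their annotated transcripts matched at 810 of 817 aligned bases, with 1 mismatch in the last 200 bases. The windows below are Bcl2a1b at chr9:89199023-89199272 (plus), Bcl2a1d at chr9:88731851-88732100 (minus), the first of 3 Bbc3 starts at chr7:16309333-16309582 (plus) and the first of 2 Bcl2l11 starts at chr2:128125788-128126037 (plus). Capitals mark an AP-1 match in the Bcl2a1 copies, a kappaB match in Bbc3 and a FOXO match in Bcl2l11.
Bcl2a1b: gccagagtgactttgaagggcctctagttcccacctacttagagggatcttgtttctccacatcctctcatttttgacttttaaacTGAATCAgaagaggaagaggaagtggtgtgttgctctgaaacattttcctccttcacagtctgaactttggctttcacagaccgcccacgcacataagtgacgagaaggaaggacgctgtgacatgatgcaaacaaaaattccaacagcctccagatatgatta
Bcl2a1d: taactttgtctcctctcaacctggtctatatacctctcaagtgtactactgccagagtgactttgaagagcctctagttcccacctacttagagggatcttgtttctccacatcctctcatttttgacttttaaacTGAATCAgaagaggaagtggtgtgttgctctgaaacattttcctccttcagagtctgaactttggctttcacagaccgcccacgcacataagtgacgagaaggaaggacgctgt
Bbc3: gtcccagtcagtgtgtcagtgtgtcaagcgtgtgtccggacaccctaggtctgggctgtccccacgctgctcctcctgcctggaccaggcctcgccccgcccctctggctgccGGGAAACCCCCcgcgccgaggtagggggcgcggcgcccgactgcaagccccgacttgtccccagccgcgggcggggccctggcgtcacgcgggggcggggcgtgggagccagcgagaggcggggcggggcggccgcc
Bcl2l11: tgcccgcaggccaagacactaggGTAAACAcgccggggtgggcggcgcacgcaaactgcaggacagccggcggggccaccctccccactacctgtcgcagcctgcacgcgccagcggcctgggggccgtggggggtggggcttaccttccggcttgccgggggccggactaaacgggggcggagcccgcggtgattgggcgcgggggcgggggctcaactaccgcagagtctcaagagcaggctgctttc

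Matches were sought on both strands for AP-1 (TGANTCA), FOXO (GTAAACA), the CRE core (TGACGT), the STAT element called GAS (letters TTCNNNGAA), the GC box (GGGCGG), the TATA box (letters TATAAA) and the kappaB consensus, and no match of one motif overlapped a match of another in the members' windows. AP-1 was held by 6.75% of all 32851 mouse windows of this length, kappaB by 3.90%, FOXO by 3.17%, the CRE core by 6.47%, GAS by 7.02%, the GC box by 32.7% and TATA by 12.4%. Among the 13 windows of the 8 members, AP-1 was found in the Bcl2a1b and Bcl2a1d windows and in none of the other members', kappaB in 1 window each of Bbc3 and Bcl2l1, FOXO in 1 window each of Bcl2l11 and Bbc3, and the CRE core in that of Bcl2. The GC box stood in 10 of the 13 windows, over 7 members with Bcl2l1 the exception, and GAS and TATA in none. The Bcl2a1b and Bcl2a1d windows shared 198 of 200 aligned bases, the AP-1 match included. That is 79.2% of the 250 bases, as the windows do not cover the same stretch. The match began 164 bases before the RefSeq start in Bcl2a1b and 114 in Bcl2a1d. Each of these 2 windows also reaches into its gene span given above. These are letter matches only, with no binding measured.

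After filters on barcodes, 47659 cells remained of 54039 barcodes, from 3964 in the IR DN library to 10051 in the IR CD4 library. Median depth per cell was 4961.5 to 6566 UMIs of retained features (mitochondrial and ribosomal protein genes and Malat1 set aside) in the control libraries and 938 to 1428 in the IR libraries. Ribosomal protein genes took 16.6% to 22.7% of UMIs in control and 27.1% to 42.0% in IR. In the file headers the Cell Ranger version was 5.0.1 throughout control and 6.0.1 throughout IR, so condition, software version and depth cannot be told apart. The 6 T cell genes were present in every library, and Cd4 and Cd8b1 followed the sort. Marker sums were at most 3.23 CPM for tubule and 2.80 CPM for endothelium, 3.50 to 11.1 CPM for myeloid cells, 2.29 to 40.7 CPM for B cells, and for erythroid cells 1.17 to 1.28 CPM in control against 19.9 to 27.6 CPM in IR. Their part in the results was not tested, and 36 to 61 kept barcodes per library were also found in another library of the same condition.

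With ischemia-reperfusion 2 BH3-only genes moved in opposite directions in every subset: Bbc3 rose 3.22-fold to 5.19-fold and Pmaip1 fell 2.36-fold to 2.56-fold, while the guardian Bcl2 was not called in any subset and its sign changed with the scaling. Bcl2l11, Bax and the A1 gene Bcl2a1b rose at least 2-fold in CD4 and DN cells. In CD4 cells these 3 calls were lost in 3, 2 and 8 of 11 alternatives, in that order, whereas in DN cells they were lost in 0 of 11. Not all were kept within CD4 or DN cell classes. A member was called changed at 10 CPM or more in the higher library and a difference of at least 2-fold. In CD4 cells 4 of 9 members were called higher and 1 lower, beside 7.75% and 15.2% of all genes at 10 CPM or more. In CD8 cells 1 was higher and 1 lower, beside 8.01% and 17.5%, and in DN cells 5 were higher and 1 lower, beside 8.34% and 11.3%. The members' median log2 ratio was 0.89 in CD4, 0.14 in CD8 and 1.22 in DN cells, where the median over all such genes was -0.27, -0.37 and -0.26.

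**Figure D1:**
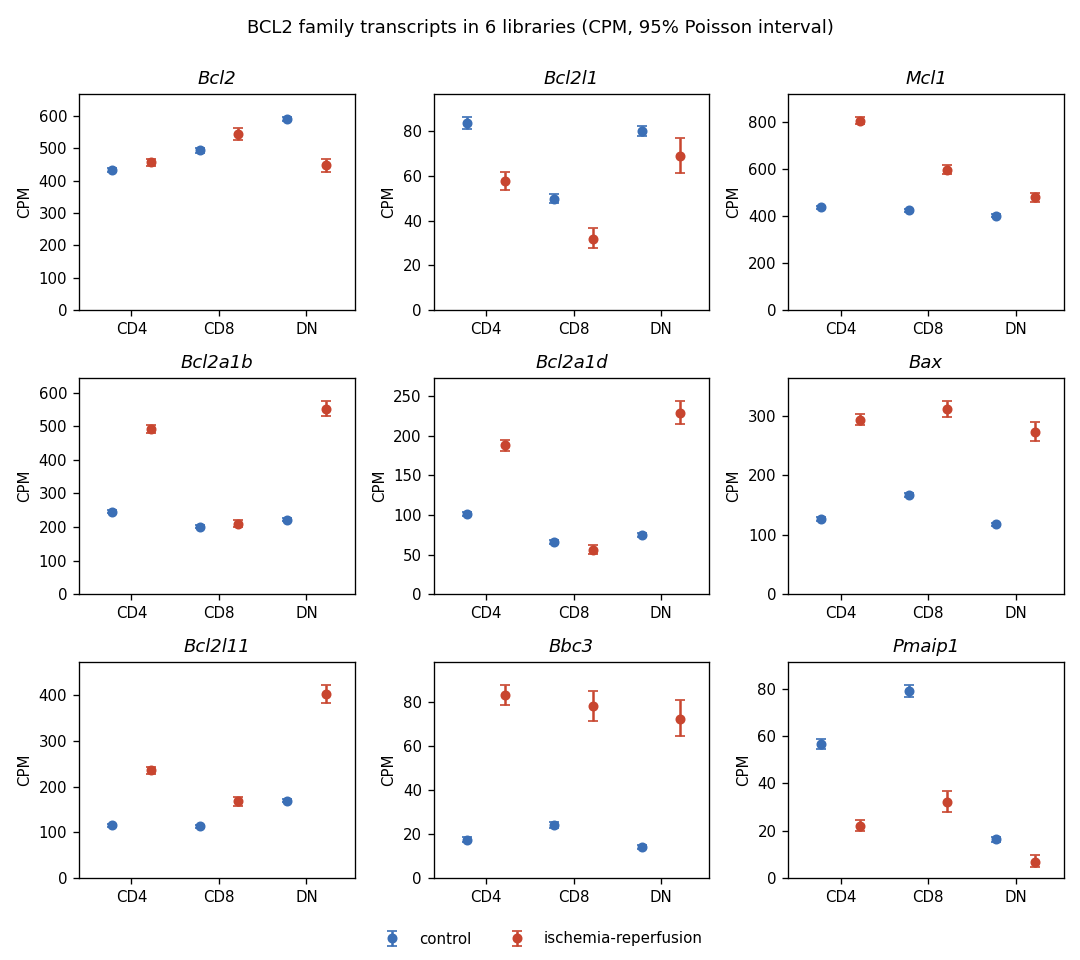
CPM of each of the 9 members (vertical axes, each starting at 0) in the CD4, CD8 and DN libraries (horizontal axis) of control (blue) and IR (red), with bars for the 95% Poisson interval. Bbc3 and Bax sat higher in red in all 3 subsets, Pmaip1 lower, and Bcl2a1b and Bcl2a1d were higher in red in CD4 and DN cells, while in CD8 cells the Bcl2a1b intervals met and Bcl2a1d was lower in red (56.0 against 66.1 CPM).

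Among the guardians, Bcl2 (chr1:106538178-106714274, minus strand) was the steadiest across the 6 libraries. Its level was 432 CPM in control CD4, 493 in control CD8 and 589.9 in control DN cells, against 456.5, 543 and 447 CPM in the IR libraries. The highest library was control DN, and the IR DN library lay within counting error of IR CD4 above it and of control CD4 below it. The log2 ratio of IR over control was 0.08 (95% interval 0.04 to 0.12) in CD4, 0.14 (0.09 to 0.19) in CD8 and -0.40 (-0.47 to -0.34) in DN cells, none of them called. These signs rest on the scaling. With the removed features kept in the totals they were -0.28, -0.28 and -0.58, and with each gene centred on genes of like intronic length they were 0.99, 0.98 and 0.34. Bcl2 has 166940 intronic bases, the most of the 9 members. The study states default settings for its preprocessing but does not say whether intronic reads were counted.

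Bcl2l1, whose product BCL-XL guards activated and developing lymphocytes, was lower in each IR library than in its control without reaching 2-fold. It stood at 83.6 CPM in control CD4, 49.8 in control CD8 and 79.9 in control DN cells, and at 57.55, 31.9 and 68.6 CPM after IR. The CD8 library was the lowest of the 3 in both conditions. The log2 ratios were -0.54 (-0.64 to -0.43) in CD4, -0.64 (-0.86 to -0.44) in CD8 and -0.22 (-0.39 to -0.05) in DN cells, and centring by intronic length took them to 0.04, -0.02 and 0.28. With the removed features kept in the totals the CD8 value was -1.06, which was called lower.

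Mcl1 (chr3:95658788-95663176, plus strand), a guardian with a short-lived product, was higher in all 3 IR libraries. It was even in control, at 437 CPM in CD4, 424 in CD8 and 401 in DN cells, and reached 805, 596 and 478.5 CPM after IR. The gain was thus graded by subset, with the IR CD4 library at the top. The difference was 1.84-fold in CD4, 1.41-fold in CD8 and 1.19-fold in DN cells, below the limit for a call in each, and in DN cells the sign turned under centring by intronic length (log2 ratio -0.02 against 0.25).

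The A1 genes separated CD8 cells from the other 2 populations. Bcl2a1b was at 246 CPM in control CD4, 200.4 in control CD8 and 222 in control DN cells, and at 491.5, 209.7 and 552 CPM after IR. It rose 2.48-fold in DN cells (log2 ratio 1.31, 1.25 to 1.38) and 2.00-fold in CD4 cells (1.001, 0.96 to 1.04), the latter on the limit and lost in 8 of 11 alternatives. In CD8 cells the 2 libraries lay within counting error (1.05-fold), and the sign turned to -0.36 with the removed features kept in the totals.

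Bcl2a1d was likewise highest in the IR DN and IR CD4 libraries, with a wider spread. Its CPM was 101 in control CD4, 66.1 in control CD8 and 74.65 in control DN cells, then 188, 56.0 and 229 after IR. It rose 3.07-fold in DN cells, differed 1.86-fold in CD4 cells and was 1.18-fold lower in CD8 cells (log2 ratio -0.24, -0.40 to -0.08). The ratio of Bcl2a1d to Bcl2a1b UMIs stayed between 0.267 and 0.415 in all 6 libraries. Because the copies are nearly identical at the sequenced end, reads can be split or lost between them, and each value is uncertain on its own. The third copy, Bcl2a1a, was near the detection limit, at 0.779 CPM or less with 1 to 21 UMIs a library.

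Bax (chr7:45461697-45466898, minus strand), the pore-forming effector, was higher by a similar amount in every subset. It was at 127 CPM in control CD4, 167 in control CD8 and 117 in control DN cells, against 294, 311 and 274 CPM after IR, so that the lowest IR library stood above the highest control library. Bax rose 2.31-fold in CD4 (log2 ratio 1.21, 1.15 to 1.26) and 2.33-fold in DN cells (1.22, 1.13 to 1.31), and the CD8 difference of 1.87-fold missed the call. The CD4 call was lost in 2 of 11 alternatives, down to a log2 ratio of 0.85.

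The BH3-only genes moved in opposite directions. Bcl2l11, which encodes BIM and is held down by survival cytokines, was at 115.5 CPM in control CD4, 114 in control CD8 and 169 in control DN cells, and at 236, 168 and 402 CPM after IR. DN cells were highest in both conditions. Bcl2l11 rose 2.39-fold in DN cells (log2 ratio 1.25, 1.18 to 1.33) and 2.04-fold in CD4 cells (1.03, 0.97 to 1.09), while the CD8 difference was 1.47-fold. The CD4 call was lost in 3 of 11 alternatives, and the DN call in none. Centring by intronic length took the CD8 log2 ratio to 1.03, which was called higher.

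Bbc3, the PUMA gene and a known p53 and FOXO target, showed the widest increase of the 9. Its CPM was 17.4 in control CD4, 24.25 in control CD8 and 14.0 in control DN cells, then 83.2, 78.2 and 72.5 after IR. The IR libraries lay close together, with CD4 and CD8 and likewise CD8 and DN within counting error of each other, although the control libraries had differed up to 1.74-fold. Bbc3 rose 4.77-fold in CD4 (log2 ratio 2.25, 2.13 to 2.38), 3.22-fold in CD8 (1.69, 1.53 to 1.84) and 5.19-fold in DN cells (2.38, 2.18 to 2.56). All 11 alternatives kept these calls, between 1.27 and 2.91 on the log2 scale over the 3 subsets.

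Pmaip1, the NOXA gene, was the sole member called lower. It was at 56.6 CPM in control CD4, 78.8 in control CD8 and 16.4 in control DN cells, and at 22.1, 32.2 and 6.93 CPM after IR. The log2 ratio was -1.35 (-1.52 to -1.19) in CD4, -1.29 (-1.50 to -1.09) in CD8 and -1.24 (-1.82 to -0.72) in DN cells. The IR DN value rested on 30 UMIs, with an interval of 4.68 to 9.89 CPM, whereas the other libraries held 207 to 3581. All 11 alternatives in scaling and cell filters kept a fall of at least 2-fold in each subset, though a minimum of 50 CPM left the DN pair uncalled.

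**Figure D2:**
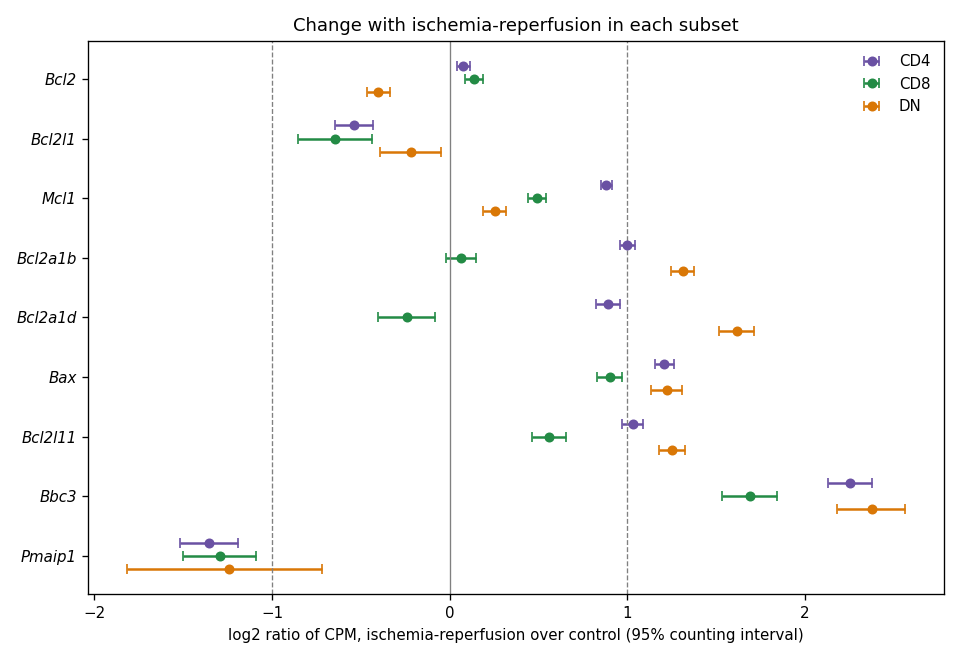
Horizontal axis, log2 ratio of IR over control CPM with its 95% counting interval; vertical axis, the 9 members; purple, CD4; green, CD8; orange, DN. Dashed lines mark 2-fold, which Bbc3 passed upward and Pmaip1 downward in all 3 subsets, while the green points of Bcl2a1b and Bcl2a1d lay near 0.

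The same UMIs were set against each other within a library, which removes the library total but not differences between genes such as intronic length. Bcl2 gave 3.74 UMIs per Bcl2l11 UMI in control CD4, 4.34 in control CD8 and 3.50 in control DN cells, against 1.94 (1.86 to 2.01), 3.24 (3.03 to 3.47) and 1.11 (1.04 to 1.19) after IR. The ratio was therefore lower after IR in each subset, least so in CD8 cells, and no interval of an IR library met that of its control. With centring by intronic length, the CD8 log2 ratios of Bcl2 (0.98) and Bcl2l11 (1.03) were nearly equal. For Bcl2 to Bax, the control ratios of 3.40 (CD4), 2.96 (CD8) and 5.03 (DN) compared with 1.55, 1.75 and 1.63 after IR. Control DN cells had the highest Bcl2 to Bax ratio of the 6 libraries, and after IR the 3 subsets lay close together. With the same centring, the log2 ratios of Bcl2 and Bax were nearly equal in CD4 (0.99 and 0.96) and CD8 cells (0.98 and 0.97), and apart in DN cells (0.34 and 1.14).

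Mcl1 to Pmaip1 moved the other way. The ratio was 7.72 in control CD4, 5.38 in control CD8 and 24.5 in control DN cells, and 36.4, 18.5 and 69.1 (48.2 to 103) after IR. Bcl2l1 to Bcl2l11 was 0.724, 0.438 and 0.474 in the control CD4, CD8 and DN libraries and 0.244, 0.190 and 0.171 in the IR libraries. Bcl2 and Bcl2l1 UMIs were thus fewer per Bcl2l11 UMI, and Mcl1 UMIs more per Pmaip1 UMI, after IR. A ratio between genes in 3' counts is compared here between libraries only, and says nothing of protein.

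**Figure D3:**
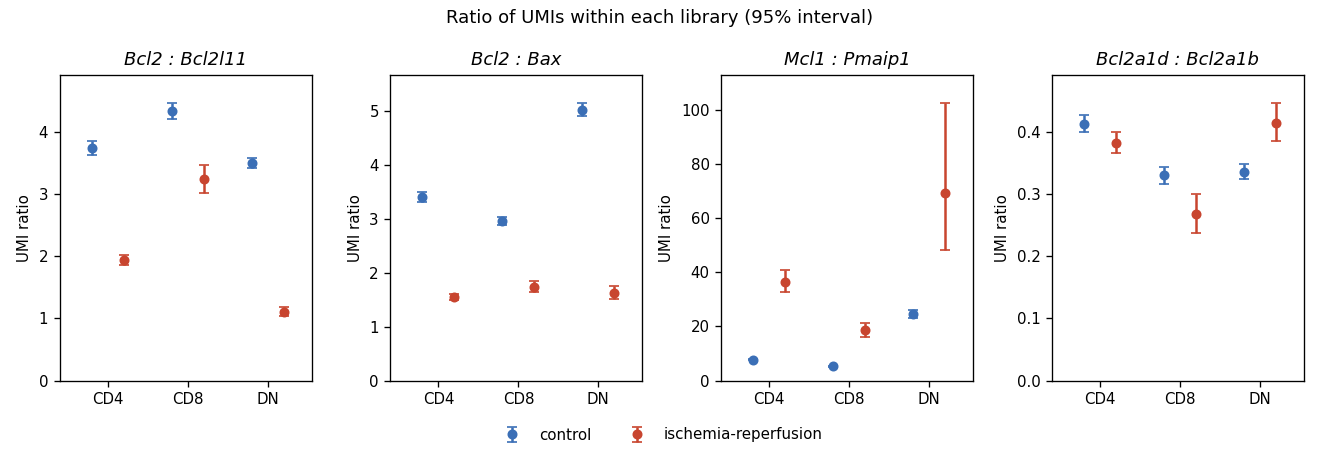
Ratio of UMIs of 2 members within each library (vertical axes from 0) by subset (horizontal axis), control in blue and IR in red, with 95% intervals. Bcl2 to Bcl2l11 and Bcl2 to Bax were lower in red in every subset (down to 1.11 and 1.55), Mcl1 to Pmaip1 was higher (up to 69.1), and Bcl2a1d to Bcl2a1b stayed between 0.267 and 0.415.

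Between subsets of the normal kidney Pmaip1 was the sole member called. DN cells held 16.4 CPM of Pmaip1, which was 3.46-fold lower than CD4 cells (log2 ratio -1.79, -1.90 to -1.69) and 4.82-fold lower than CD8 cells (-2.27, -2.37 to -2.17). For DN over CD4, 0 of 9 members were called higher and 1 lower, where 1.37% and 1.39% of genes were called, and only 0.474% of genes had a lower log2 ratio than Pmaip1. For DN over CD8 the counts were again 0 and 1, beside 3.52% and 3.03%. Bcl2 was 1.36-fold and Bcl2l11 1.46-fold higher in DN than in CD4 cells, both under the limit. Bbc3 was 1.74-fold and Bax 1.42-fold lower, and Bcl2l1 1.61-fold higher, in DN than in CD8 cells, also uncalled, though Bbc3 was called in thinned cells. For CD4 over CD8, 0 were higher and 0 lower, beside 2.60% and 1.76% of genes, with Bcl2l1 (1.68-fold) and Bcl2a1d (1.53-fold) nearest to a call.

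In the ischemic kidney the A1 genes were called lower in CD8 cells than in both other subsets. For DN over CD8, 4 of 9 members were called higher and 1 lower, beside 7.58% and 4.21% of genes: Bcl2a1d was 4.09-fold, Bcl2a1b 2.63-fold, Bcl2l11 2.40-fold and Bcl2l1 2.15-fold higher in DN cells, and Pmaip1 was 4.64-fold lower (log2 ratio -2.22, -2.82 to -1.66, on 30 UMIs in DN cells). The Bcl2l1 call was lost in 2 of 11 alternatives. For CD4 over CD8, Bcl2a1d (3.36-fold) and Bcl2a1b (2.34-fold) made 2 higher and 0 lower, beside 3.56% and 3.96%. For DN over CD4, 0 were higher and 1 was lower, beside 4.85% and 2.38%, and this was Pmaip1 at 3.19-fold, with Bcl2l11 at 1.71-fold higher and Mcl1 at 1.68-fold lower in DN cells, both uncalled. These contrasts share libraries with one another and with the IR contrasts. DN cells had the lowest Pmaip1 in both conditions.

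Within the CD4 and CD8 libraries the members were then split by Ccr7, the lymph node homing receptor of naive and central memory T cells, as cells with at least 1 Ccr7 UMI and cells with none. Cells with a Ccr7 UMI carried more Bcl2 and Bbc3 and much less Bcl2a1b, Bcl2a1d and Bcl2l1. In control CD8 cells (1559 with and 7717 without) Bcl2 was 841 against 404 CPM, Bbc3 52.4 against 17.0, Bcl2a1b 59.1 against 237 and Bcl2a1d 13.8 against 79.5. Among IR CD8 cells (2346 and 3951) Bcl2 was 712 against 447 CPM, Bbc3 113.5 against 58.2, Bcl2a1b 81.7 against 282 and Bcl2a1d 13.8 against 79.9. Bax hardly varied, at 170.1 against 166 CPM in control and 311 against 311 after IR. The pattern was the same in CD4 cells, with Bcl2a1b at 68.0 against 261 CPM in control (693 and 8493 cells) and 144 against 574 after IR (2016 and 8035).

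**Figure D4:**
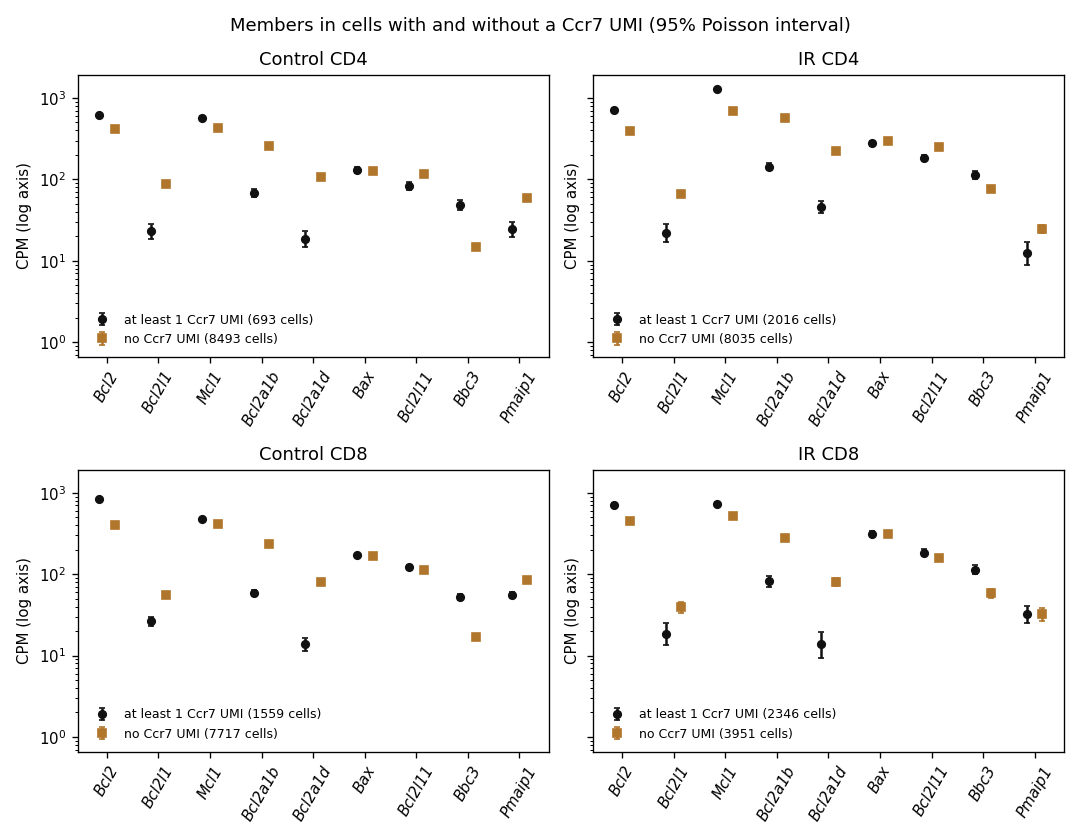
CPM of the 9 members (vertical axis, log scale) in cells with at least 1 Ccr7 UMI (black circles) and with none (brown squares) of the CD4 and CD8 libraries, with 95% Poisson intervals. Black lay above brown for Bcl2 and Bbc3 and below it for Bcl2l1, Bcl2a1b and Bcl2a1d in all 4 panels, as with 59.1 against 237 CPM for Bcl2a1b in control CD8 cells.

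The share of cells with a Ccr7 UMI differed between conditions despite the lower IR depth. It was 7.54% (95% Clopper-Pearson interval 7.01 to 8.10) in control CD4 and 20.1% (19.3 to 20.9) in IR CD4 cells, and 16.8% (16.1 to 17.6) in control CD8 and 37.3% (36.1 to 38.5) in IR CD8 cells. A class set by 1 UMI depends on depth, so cells without one include cells whose Ccr7 was not sampled. In the summed libraries, a change in the share of such cells and a change of level within them cannot be told apart.

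Split this way, after the data had been seen, the members called higher in whole CD4 cells were called in both classes, and Pmaip1 in 1 of them. Among CD4 cells with a Ccr7 UMI, 6 members rose and 0 fell, beside 7.90% and 17.2% of all genes in that class, with Mcl1 now called at 2.27-fold (1298 against 573 CPM), Bcl2a1d at 2.48-fold, Bcl2a1b at 2.12-fold, Bcl2l11 at 2.16-fold, Bax at 2.14-fold and Bbc3 at 2.31-fold, and Pmaip1 was 1.94-fold lower. Among those without, 5 rose and 1 fell, beside 7.61% and 14.6%. Bbc3 rose 5.14-fold, Pmaip1 fell 2.43-fold, and Bcl2a1b (2.20-fold) and Bcl2a1d (2.05-fold) were both called. In CD8 cells 1 member rose and 0 fell with a Ccr7 UMI, beside 8.04% and 17.8% of genes, and 1 rose and 1 fell without, beside 7.91% and 18.1%. Bbc3 rose 2.16-fold with and 3.42-fold without, and Pmaip1 fell 2.64-fold without and was 1.72-fold lower with one. Bcl2a1b in CD8 cells was 1.38-fold higher with and 1.19-fold higher without, each above the 1.05-fold of the whole library, and Bcl2a1d stood at 13.8 against 13.8 CPM with and 79.9 against 79.5 CPM without.

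Other classes gave further contrasts within a library. In CD4 cells with a UMI of Foxp3, the regulatory T cell factor (342 control and 304 IR cells), Bcl2 was 147.5 CPM in control and 133 after IR, against 445 and 467 CPM in the other CD4 cells. Pmaip1 ran the other way, at 129 and 67.4 CPM in Foxp3 cells against 53.4 and 20.6 CPM in the rest. Bcl2l11 was lower in Foxp3 cells as well, at 55.1 against 118 CPM in control and 95.2 against 241 CPM after IR. Cells with a Foxp3 UMI were thus lower in Bcl2 and Bcl2l11 and higher in Pmaip1 in both conditions, and the intervals of these pairs did not meet.

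Gzmk, a granzyme of effector memory CD8 cells, was found in 3491 control and 544 IR CD8 cells. In control these held 382 CPM of Bcl2 against 579.7 in the others, and after IR 214 against 579, with Bcl2a1b at 418 against 187 CPM after IR. Bcl2a1b in the Gzmk class was 1.72-fold higher after IR, with Bax at 1.99-fold, both uncalled.

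In DN cells the NK1.1 gene Klrb1c, the PD-1 gene Pdcd1 and the adaptor gene Fcer1g were used. Control DN cells with a Klrb1c UMI (3977) held 676 CPM of Bcl2 and 176 CPM of Bcl2a1b, against 516 and 262 CPM in the other 4908. Those with a Pdcd1 UMI (756) held 425 CPM of Bcl2a1b and 236 of Bcl2l11, against 200.3 and 161 CPM in the rest. Fcer1g cells (2186) were low in Bcl2a1b, at 142 against 251 CPM, and remained so after IR at 278 against 603 CPM. The 6 calls of whole DN cells were not all kept within these classes, which were compared after the data had been seen. With a Klrb1c UMI 4 members were called higher and 1 lower, beside 8.48% and 14.0% of all genes in that class, and Bcl2l11 was under the limit at 1.69-fold (2.49-fold without). With an Fcer1g UMI 2 were higher and 1 lower, beside 8.99% and 18.2%, as Bcl2l11 (1.58-fold), Bcl2a1b (1.96-fold) and Bcl2a1d (1.92-fold) were under it. With a Pdcd1 UMI 2 were higher and 0 lower, beside 26.1% and 13.3%, as Bcl2a1b (1.72-fold), Bcl2a1d (1.83-fold) and Bax (1.90-fold) were under it. Bbc3 was called higher in all 3, at 5.40-fold with Klrb1c (759 IR cells), 8.95-fold with Pdcd1 (87 IR cells) and 4.72-fold with Fcer1g (578 IR cells). Values of the 87 Pdcd1 cells rest on few counts (8 UMIs of Bbc3, equal to 87.0 CPM), and 0 UMIs of Pmaip1 were found in them, so no fold is given. At this depth very few UMIs pass the 10 CPM minimum, and a count of 0, set to 3, can be called higher. The share of 26.1% was made under that limit and does not compare with those of the other classes.

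Cycling cells with a UMI of the proliferation gene Mki67 held less Bcl2 in control CD4 (275 against 448 CPM), with 669 cells in that class and 87 after IR. Leaving out all cells with Mki67 or Top2a kept every IR call in the 3 subsets.

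Shares of cells with a UMI were compared after each cell had been thinned to 500 UMIs of retained features. For Bbc3 they were 0.795% in control CD4, 1.26% in control CD8 and 0.529% in control DN cells, and 4.32%, 3.70% and 3.58% after IR. Unthinned, IR stayed above control in CD4 cells (11.1% against 8.18%) but lay below it in CD8 (7.13% against 9.33%) and DN cells (6.96% against 8.15%). Bcl2l11 was found in 5.36%, 4.99% and 7.54% of thinned control CD4, CD8 and DN cells and in 10.9%, 7.99% and 17.2% of IR cells (33.3%, 31.3% and 50.2% against 24.6%, 14.3% and 29.5% unthinned). At equal depth the shares of both genes were thus higher after IR in all 3 subsets, as was their CPM, of which a share at a fixed depth is largely a restatement, whereas unthinned the Bcl2l11 shares were lower after IR in all 3.

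Bcl2a1d was found in 10.3% (9.34 to 11.3) of thinned IR DN cells against 3.58% (3.20 to 3.99) of control DN cells, and in 2.53% against 3.28% of CD8 cells. Bax was found in 5.88%, 7.96% and 5.52% of thinned control CD4, CD8 and DN cells and in 13.8%, 14.5% and 12.9% of IR cells. Pmaip1 was found in 0.252% (0.121 to 0.463) of thinned IR DN cells, 10 of 3964, against 0.855% in control DN cells. Unthinned, Pmaip1 was found in 0.681% of IR DN and 7.26% of control DN cells. As a measure, at the same depth, of RNA from cells outside the gate, Cd8b1 was found in 0.0757% of IR DN, 0.229% of IR CD4 and 0.142% of control CD4 cells, and Cd4 in at most 0.0318% of CD8 and DN cells. In the IR DN library the thinned Pmaip1 and Cd8b1 intervals met (0.121 to 0.463 and 0.0156 to 0.221), while unthinned they did not, at 0.681% (0.449 to 0.990) against 0.227% (0.104 to 0.431), with few cells behind each. These shares do not measure free RNA of genes that the loaded cells themselves express, which was not tested.

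Lists of relatives and partners were read in the same contrasts, and their counts stand beside the shares of all genes called higher and lower with IR, 7.75% and 15.2% in CD4, 8.01% and 17.5% in CD8 and 8.34% and 11.3% in DN cells. Of 17 other BCL2 family genes, 8 in CD4, 6 in CD8 and 8 in DN cells reached the 10 CPM minimum. Bcl2l15 was the only one called with IR, at 11.6 against 3.45 CPM in CD4 (log2 ratio 1.74) and 11.1 against 3.16 CPM in DN cells (1.81, on 48 IR UMIs). Its IR values lay near the minimum, and 0 were called in CD8 cells. Bik, a BH3-only gene, was higher in DN than in CD8 cells in both conditions, at 18.35 against 7.504 CPM in control and 31.9 against 5.13 CPM after IR. Among 14 genes of the apoptosome and caspases at the minimum, Apaf1, the apoptosome scaffold, fell in all 3 subsets (64.6 to 27.9 CPM in CD4, 49.6 to 19.3 in CD8 and 46.0 to 19.6 in DN cells). The caspase inhibitor gene Xiap fell in CD8 cells (100.3 to 46.6 CPM), and the inhibitor gene Birc3 rose in DN cells (116 to 256 CPM). The median log2 ratio of that list was -0.22 in CD4, -0.44 in CD8 and -0.06 in DN cells.

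Of 5 genes for MCL1 turnover, Btrc, a ubiquitin ligase subunit, fell in all 3 subsets (63.0 to 23.0 CPM in CD4 cells), and Fbxw7 fell in CD4 cells (132 to 61.1 CPM). The survival cytokine list gave 1 higher and 1 lower of 13 in CD4, 1 and 2 of 12 in CD8, and 1 and 0 of 13 in DN cells, where 1 of 13 is near the share of all genes. The gene that rose each time was Il7r, the interleukin 7 receptor chain, from 266 to 893 CPM in CD4, 375 to 781 CPM in CD8 and 146.5 to 707 CPM in DN cells. Il15ra fell in CD4 (25.3 to 11.4 CPM) and CD8 cells (32.8 to 14.15 CPM), where Socs2 also fell (19.3 to 7.77 CPM). In the ischemic kidney Il2ra was 91.9 CPM in DN against 5.29 CPM in CD8 cells.

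Death receptor genes gave 1 higher and 1 lower of 12 in CD4, 2 and 2 of 11 in CD8, and 1 and 2 of 12 in DN cells, at most 2 genes in either direction. Fas rose in CD4 (37.2 to 97.1 CPM) and CD8 cells (40.2 to 88.3 CPM), Tnfrsf10b, the TRAIL receptor, rose in CD8 (6.76 to 14.15 CPM) and DN cells (17.7 to 41.1 CPM), and its ligand Tnfsf10 fell in all 3 (112 to 30.0 CPM in CD4 cells). Fasl fell in CD8 cells (179 to 51.9 CPM) and Ripk3 in DN cells (19.4 to 7.16 CPM). Of 9 p53 genes at the minimum, 1 was higher in each subset, and it was Cdkn1a each time (9.76 to 59.96 CPM in CD4, 5.77 to 35.0 in CD8 and 8.07 to 69.5 in DN cells). Zmat3 fell in CD4 cells (19.05 to 8.63 CPM). The p53 list's median log2 ratio was -0.32, -0.66 and -0.38, close to or under that of all genes.

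NF-kB feedback genes gave 3 higher of 13 in CD4 and in DN cells and 1 higher and 1 lower in CD8 cells, the last near the share of all genes. Nfkbia rose in each (439 to 2291 CPM in CD4, 436 to 1288 in CD8, 462 to 2141 in DN cells). Tnfaip3 and Nfkb2 rose in CD4 (531 to 1231 and 40.5 to 87.7 CPM) and DN cells (397.5 to 1323 and 42.7 to 121 CPM). In CD8 cells they went from 432 to 698.5 and from 34.9 to 37.2 CPM, uncalled, and Tnf fell (132 to 54.6 CPM). A relation of these genes to the A1 genes was not tested. The 8 FOXO genes had a median log2 ratio of 0.38 in CD4, 0.095 in CD8 and 0.20 in DN cells, and Foxo3 fell in CD4 cells (202 to 92.01 CPM). Klf2 rose in all 3 (426 to 2081 CPM in CD4, 742 to 3650 in CD8, 278 to 824 in DN cells), and S1pr1, which like Ccr7 belongs to recirculating cells, rose in CD4 (65.8 to 277 CPM) and CD8 cells (102 to 362 CPM).

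Immediate early genes gave 7, 6 and 6 higher of 12 in CD4, CD8 and DN cells, with Nr4a1 (55.4 to 294 CPM) and Junb (2078 to 8692 CPM) among the 4 with the widest gain in CD4 cells, together with Zfp36 and Dusp1. Heat shock genes gave 5 lower of 8 in each subset, led by Bag3 (116.5 to 13.7 CPM), Hspa1a (1152 to 147 CPM), Hspa1b (1786 to 234 CPM) and Hsph1 (457 to 61.8 CPM) in CD4 cells. Of 4 genes of the integrated stress response at the minimum, 0 were called in any subset, with median log2 ratios of 0.74, 0.54 and 0.84. The immediate early and heat shock genes were called in the same contrasts as the members, and their part in the members' values was not tested.

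Genes were ranked by how closely they tracked a member across the 6 libraries, by the root mean square difference of centred log2 CPM among 5015 genes at 50 CPM or more in some library. With so many genes and only 6 libraries, small differences come from the picking alone, and no shared regulation was tested. Nearest to Bcl2a1b were Isg20 (0.13), Nfkb2 (0.13) and Gm11707 (0.13), and nearest to Bcl2l11 were Zcchc10 (0.09), Peg13 (0.12) and Sytl3 (0.14). Mcl1 was followed by Ccs (0.03), Birc2 (0.09) and Tpgs1 (0.10), and Bcl2 by Ddx18 (0.06), Ccz1 (0.06) and Rpn1 (0.08). Sytl3, for example, had 139 CPM in the control and 443 CPM in the IR library of DN cells.

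**Figure D5:**
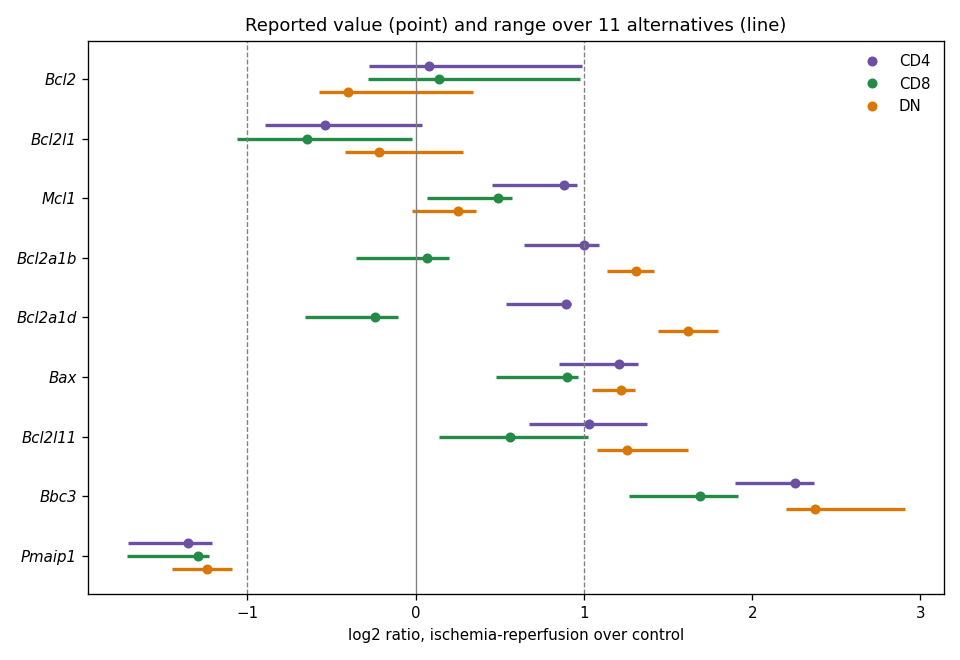
Horizontal axis, log2 ratio of IR over control for the 9 members (vertical axis) in CD4 (purple), CD8 (green) and DN (orange) cells; points are the values reported here and lines span the 11 alternatives in scaling and cell filters. The lines of Bbc3 and Pmaip1 stayed beyond 1 and -1 throughout, from 1.27 upward and from -1.09 downward, whereas those of Bcl2 crossed 0 in all 3 subsets.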

How the data were processed

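The authors sorted kidney T cells, made 10x Genomics 3' v3.1 libraries and aligned reads to mm10 with Cell Ranger (6.0.1 per the submitters' notes; the headers name 5.0.1 for control). The deposited values are raw UMI counts per gene and barcode, and still held barcodes that fail the study's filters. As in the study, barcodes with under 500 features or over 20% mitochondrial UMIs and the 5% deepest of each library (as possible doublets) were removed; its filter on rarely detected features was not applied. Barcodes without a UMI of 6 T cell genes, or with 3 or more UMIs over 12 myeloid and B cell genes, were left out (616 of 48275); this marker rule replaced clustering. Mitochondrial and ribosomal protein genes and Malat1 (104 features) were set aside.

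UMI counts were summed per library and scaled to CPM. With 1 library per group there is no replicate error and no test. CPM carries an exact Poisson interval, ratios and shares an exact Clopper-Pearson interval, all at 95%; a count of 0 was set to 3. A call needs 10 CPM and 2-fold. Depth was 4329920 to 60751679 retained UMIs, so a count of 3 was worth 0.0494 to 0.693 CPM. For shares each cell was thinned to 500 UMIs. Lists gave all called genes where 4 or fewer were called in a contrast, otherwise the 4 with the widest fold; genes named for subset contrasts within lists are examples chosen after their values were seen. Some list genes, and the counts of calls that include them, are not reported here. Members and lists were chosen with earlier results of these data known. Intronic lengths and positions came from GENCODE M21 (99.85% of 32285 features matched) and promoter windows from RefSeq. The calling script was tested on simulated data. Python 3.11.15, numpy 2.4.6, scipy 1.17.1, pandas 2.3.3, R 4.3.3 and edgeR 4.0.16 (for TMM scaling only) were used.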

Additional observations from a re-analysis of the deposited data

Results flagged for a closer look

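Bcl2 had opposite signs between subsets, its IR over control value on the log2 scale being 0.078 in CD4 and 0.138 in CD8 but -0.401 in DN cells, each with a counting interval off 0. Bcl2a1d was likewise at 0.89 in CD4 and 1.62 in DN but -0.24 in CD8 cells. With 1 library per group the differences between subsets were not tested. The Bcl2 signs changed with the scaling, as given in the report, whereas for Bcl2a1d they were positive in CD4 and DN and negative in CD8 cells under all 11 alternatives. Within CD8 cells split by Ccr7 the Bcl2a1d value was -0.003 with and 0.007 without a Ccr7 UMI, so the CD8 sign was not seen in either class.

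Barcodes left out as non-T cells entered no reported comparison, and were kept only in alternative settings. In the 471 of them from IR libraries Bcl2l11 was at 224 CPM (120 UMIs, 186 to 268), above the 97.2 CPM (39 UMIs, 69.1 to 133) of the 145 from control libraries and beside 247 CPM in the kept IR cells.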

How the results depend on the processing

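No paired analysis was possible because each group was 1 library with no replicate numbers to pair, and no library could be left out for the same reason. A fit with subset as a block was not run, since the 3 subsets are different cell populations and not replicates. Of the 9 counts of members called, 116 of 126 planned recomputed values stayed within 1.5 times. In CD4 cells the 5 calls with IR became 2 with the removed features kept in the totals (Bcl2l11, Bcl2a1b and Bax lost), 3 with the deepest 5% of barcodes kept and 3 without cell filters (Bcl2l11 and Bcl2a1b lost each time), and 3 when centred by intronic length (Bcl2a1b and Bax lost). The share of all genes called in CD4, 23.0% as reported, was 34.8%, 21.5%, 21.5% and 13.5% in that order. Within CD4 cell classes, compared after the data were seen, Bcl2l11 (1.73-fold), Bcl2a1b (1.77-fold) and Pmaip1 (1.91-fold) were uncalled with a Foxp3 UMI. With an Mki67 UMI (87 IR cells) these and Bax (1.95-fold) were uncalled. Bcl2a1d was called in each (2.52-fold and 2.75-fold). In CD8 cells the 2 calls became 4 at a 1.5-fold limit (Bcl2l1 and Bax gained) and, as an alternative added after the data were seen, 1 in cells with a Ccr7 UMI. In DN cells the 6 calls became 3 in cells with an Fcer1g UMI (Pmaip1 among them, on 6 IR UMIs) and 2 in those with a Pdcd1 UMI, also added after the data were seen. For DN over CD8 in control, 1 call became 2 in thinned cells (Bbc3 gained) and 3 at 1.5-fold. For CD4 over CD8 in control, 0 became 2 at 1.5-fold, and for DN over CD4 in IR, 1 became 0 at a minimum of 50 CPM and 3 at 1.5-fold. At the 1.5-fold limit the share of all genes called, in either direction, was 51.2% for IR over control in CD8, 14.0% for DN over CD8 in control, 10.5% for CD4 over CD8 in control and 15.1% for DN over CD4 in IR. It was 7.77% for DN over CD8 in control in thinned cells and 5.23% for DN over CD4 in IR at a minimum of 50 CPM.

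Keeping the removed features in the totals moved the median log2 ratio of all genes by -0.36 in CD4, -0.42 in CD8 and -0.18 in DN cells, and centring by intronic length by 0.21, 0.34 and 0.26. The share of calls that were higher with IR, 33.8% in CD4, 31.4% in CD8 and 42.5% in DN cells, became 10.7%, 9.28% and 25.5% in the first case, 61.8%, 65.2% and 70.9% in the second and 71.3%, 74.7% and 82.8% with no minimum. Of 891 recomputed log2 ratios of members, 682 lay within the counting interval of the reported one, 15 calls were lost and 4 gained, and no called member changed sign. Beyond that rule, the cause of these shifts was not tested. Depth limits Pmaip1 in the IR DN library (30 UMIs), and condition, software version and depth cannot be told apart.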

Other observations

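The barcodes left out as non-T cells gave the following values for other members, pooled over the 3 libraries of a condition. Bcl2 was at 179 CPM in IR barcodes (145 to 219) and 389 CPM in control barcodes (330.0 to 455), against 476 and 511 CPM in the kept cells. Bbc3 was at 52.3 CPM (28 UMIs) after IR and 17.4 CPM (7 UMIs) in control, and Pmaip1 at 22.4 CPM (12 UMIs) after IR and 84.7 CPM (34 UMIs) in control, close to the 22.1 CPM of kept IR cells and above the 47.4 CPM of kept control cells.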
